A study of Homo sapiens with 10 samples.

Results

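The genes described here encode the SR proteins and the heterogeneous nuclear ribonucleoproteins (hnRNPs), the 2 large families of RNA-binding proteins that guide splice site choice. They were chosen as the protein-coding genes with an SRSF number or an HNRNP symbol and at least 200 read counts over 10 RNA-seq libraries. Of 57736 gene IDs in the count table, 36 matched the symbol rule and 33 had enough counts, 10 SRSF and 23 HNRNP genes. The lowest total among the 33 was 810 counts (HNRNPA1L3). The 3 genes left out were SRSF12 with 101 counts, HNRNPCL1 with 5 and HNRNPCL4 with 0.

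The libraries came from IMR90 cells, an established line of human fetal lung fibroblasts, in 5 groups of 2. The mutant knock-in and wild type knock-in groups were senescent METTL3 knockout cells with a mutant or a wild type METTL3 put back. The METTL3 knockout group was senescent cells with METTL3 lowered, the senescent control group was senescent cells with a control knockout, and the control group was cells that were not made senescent. METTL3 catalyses the methylation of RNA adenosines to m6A. Per the labels' protocols, a retrovirus was empty or carried RAS, an oncogene that drives fibroblasts into senescence, siRNA was given from day 4, a lentivirus carried the wild type or mutant gene, and cells were harvested 48 hours later. All groups but control carry RAS. The column names give siCTR, a control siRNA, for control and senescent control, and siMETTL3 for METTL3 knockout and both knock-in groups. The word knockout follows the titles, although the protocol describes siRNA. That protocol names METTL14 where titles and column names say METTL3, and the sources used here do not give the METTL3 mutation. Only the knockout columns have vec in their names, so a lentivirus and the knockdown cannot be told apart in that comparison. Separate cultures are not stated for the replicates. The p-values therefore measure nothing beyond the spread of these samples, and that spread may be technical.

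SR proteins carry RNA recognition motifs and a tail of arginine-serine repeats. They bind enhancer sequences in exons and bring the U1 and U2 small nuclear ribonucleoproteins (snRNPs) to splice sites, and kinases that phosphorylate the tail set where in the cell they act. The hnRNPs coat new transcripts, often block splice sites and often act against SR proteins, and several also steer export, translation and decay. Many genes of both families carry poison exons, whose inclusion sends the transcript to nonsense-mediated decay. Counts per gene join such transcripts with the productive ones. Several hnRNPs, hnRNP C and hnRNP A2/B1 among them, are known to bind RNA near m6A.

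Total counts ran from 16293975 to 23570266 per library. METTL3 itself stood at 114100 and 147800 CPM (counts scaled to a common library total) in mutant knock-in, 58380 and 58120 in wild type knock-in, 23.2 and 28.89 in METTL3 knockout, 47.27 and 57.3 in senescent control and 72.66 and 81.43 in control. It took 11.3% and 14.2% of all counts in mutant knock-in and 5.87% and 5.86% in wild type knock-in. HRAS was at 23.69 to 61.31 CPM in the 8 libraries with RAS, against 14.75 and 14.6 in control. The control libraries stood further from each other than other replicates did. A chi-square of their counts averaged 37.7 per gene, against 5.47 to 7.93 in the other groups. The 10 fibroblast markers summed to 12370 to 18580 CPM in the RAS libraries and to 28620 and 22590 CPM in control. The leukocyte marker CD3E and the epithelial marker KRT5 were at 0 in all libraries, 4 leukocyte markers (PTPRC, CD3E, CD68 and LYZ) summed to 66.78 to 177 CPM, nearly all of it CD68, the 5 epithelial markers summed to 19.44 to 52.66 CPM, and the 3 endothelial markers measured summed to at most 4.434 CPM.

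Both families took a smaller part of the RNA in all RAS libraries than in control. The 23 hnRNP genes summed to 3394 and 3460 CPM in mutant knock-in, 3367 and 3353 in wild type knock-in, 3606 and 3568 in METTL3 knockout, 3647 and 3610 in senescent control, and 4960 and 5250 in control. The 10 SR genes summed to 1125 and 1139 CPM in mutant knock-in, 1104 and 1106 in wild type knock-in, 1222 and 1240 in METTL3 knockout, 1195 and 1189 in senescent control, and 1460 and 1546 in control. Neither sum overlapped between control and any RAS group. Between the RAS groups the sums lay close, with both knock-ins below the knockout in both families. As a share of all counts other than METTL3, the 33 genes took 0.471% to 0.516% in the RAS libraries, against 0.622% and 0.66% in control. On this share mutant knock-in (0.505% and 0.516%) was not below METTL3 knockout (0.512% and 0.505%), while wild type knock-in was (0.478% and 0.477%). The order of mutant knock-in and knockout thus depends on the scaling. In these bulk samples, fewer cells of a type and less RNA per cell cannot be told apart.

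**Figure D1:**
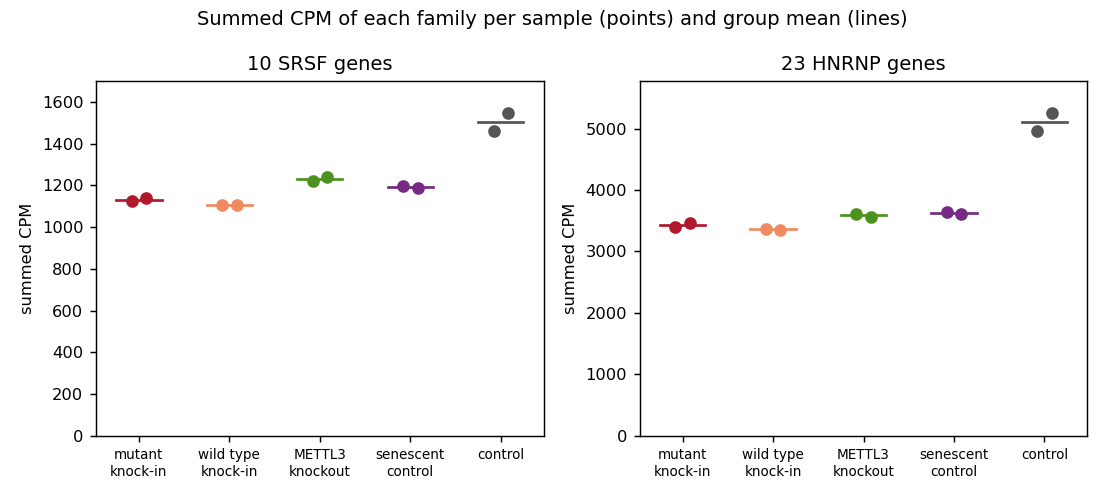
Summed CPM of the 10 SRSF genes (left) and the 23 HNRNP genes (right) in each library (points), with a line at the group mean, from mutant knock-in at the left to control at the right. Both control libraries sit above all 8 RAS libraries in both panels, at 1460 and 1546 CPM for the SR genes and 4960 and 5250 CPM for the hnRNP genes.

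Gene by gene, 21 of the 33 (63.6%) had all 8 RAS libraries below both control libraries, while 23% of all 16760 genes tested did. SRSF11 and SRSF5 alone had all 8 RAS libraries above both controls (6.06% of the 33, against 18.7% of all genes). Across 5 comparisons, HNRNPC passed the test in 4, 7 genes in 3, 11 in 2 and 9 in 1. The comparisons share groups, and 12.5% to 48.4% of all genes passed in each. Passes per gene were not counted over all genes, so these numbers have no background. The 5 of the 33 that passed in none were HNRNPA2B1, HNRNPDL, HNRNPH1, HNRNPH3 and SRSF10. Some of them passed under other settings. In wild type knock-in against METTL3 knockout, HNRNPDL was lower by the DESeq2 Wald test (adjusted p = 0.0484). HNRNPDL and SRSF10 were also lower there with no filter on low counts (edgeR adjusted p = 0.028 and 0.0226). Each of these 5 passed in senescent control when control replicate 1 or 2 was left out. HNRNPH1, which binds runs of G, moved least of these, with log2 fold changes from -0.11 to 0.10 over the 5 comparisons. A test here is edgeR's quasi-likelihood F test. A gene is called higher (rose) or lower (fell) when its p-value, adjusted by the Benjamini-Hochberg method over all 16760 genes, is under 0.05. Groups of 2 libraries often do not overlap: over the 5 comparisons, 30% to 39.7% of all genes lay fully above and 32.7% to 39.4% fully below.

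Promoter sequences of 30 of the 33 genes were found in RefSeq (GRCh38.p14) and searched, on both strands, for 6 short motifs in the 300 bases from 250 before to 50 after each start. A gene with several starts counted when any of its windows held the motif, which applies to 9 of the 30 and to 25.6% of coding genes. CCAAT was in 19 of the 30 (63.3%), against 42.1% of 15843 protein-coding genes. The GC box GGGCGG was in 22 (73.3%, against 64.3%), and the E-box CACGTG in 7 (23.3%, against 10.9%). The ETS motif CCGGAAG was in 5 (16.7%, against 16.5%), TATAAA in 6 (20%, against 12.4%) and the CRE motif TGACGTNA in 1 (3.33%, against 4.62%). No matches of different motifs overlapped in these windows. The counts describe letters and carry no test. The windows of HNRNPUL2 and HNRNPUL2-BSCL2 overlap and are not separate cases.

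The 250 bases before the start are shown for 5 genes whose RNA moved in different directions below, with motif matches in capitals. They are HNRNPA0 (chr5:137754364-137754613), lower in senescent control, HNRNPC (chr14:21269443-21269692), higher in mutant knock-in, and HNRNPLL (chr2:38602929-38603178), HNRNPUL2 (chr11:62727458-62727707) and SRSF9 (chr12:120469749-120469998), lower in both knock-ins. The fall of HNRNPUL2 in wild type knock-in depends on how reads shared with HNRNPUL2-BSCL2 were divided, as described below. All 5 promoters lie on the minus strand and are written 5′ to 3′ along the gene.
HNRNPA0: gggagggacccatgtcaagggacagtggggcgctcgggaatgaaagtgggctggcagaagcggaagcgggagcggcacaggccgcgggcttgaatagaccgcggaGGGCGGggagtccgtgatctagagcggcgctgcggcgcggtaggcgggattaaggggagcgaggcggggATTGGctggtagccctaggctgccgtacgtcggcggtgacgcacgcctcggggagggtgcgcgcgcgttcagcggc
HNRNPC: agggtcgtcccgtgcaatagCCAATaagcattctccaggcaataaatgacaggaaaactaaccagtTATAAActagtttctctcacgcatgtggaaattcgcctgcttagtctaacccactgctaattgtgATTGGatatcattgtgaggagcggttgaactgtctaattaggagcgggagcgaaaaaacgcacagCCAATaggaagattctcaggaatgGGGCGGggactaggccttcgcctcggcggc
HNRNPLL: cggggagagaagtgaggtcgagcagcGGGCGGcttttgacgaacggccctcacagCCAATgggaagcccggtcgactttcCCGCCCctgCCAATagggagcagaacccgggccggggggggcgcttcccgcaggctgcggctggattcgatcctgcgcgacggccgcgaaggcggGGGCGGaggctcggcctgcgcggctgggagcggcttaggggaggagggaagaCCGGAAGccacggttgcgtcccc
HNRNPUL2: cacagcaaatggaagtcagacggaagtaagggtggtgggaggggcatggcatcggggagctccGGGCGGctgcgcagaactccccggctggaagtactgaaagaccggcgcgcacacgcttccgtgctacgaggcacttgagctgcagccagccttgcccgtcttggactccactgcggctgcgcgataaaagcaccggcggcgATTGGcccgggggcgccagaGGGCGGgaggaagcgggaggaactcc
SRSF9: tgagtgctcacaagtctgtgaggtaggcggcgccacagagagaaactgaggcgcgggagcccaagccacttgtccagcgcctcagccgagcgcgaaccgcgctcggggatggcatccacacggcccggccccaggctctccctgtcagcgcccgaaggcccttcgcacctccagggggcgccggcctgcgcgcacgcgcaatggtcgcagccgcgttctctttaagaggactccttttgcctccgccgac
In HNRNPC the capitals mark 3 CCAAT matches (ATTGG is CCAAT on the other strand), 1 GC box and 1 TATAAA. HNRNPLL holds 2 CCAAT, 3 GC box and 1 ETS match, HNRNPUL2 holds 1 CCAAT and 2 GC box matches, and HNRNPA0 holds 1 CCAAT and 1 GC box match. SRSF9 holds none of the 6. Whether any motif goes with the changes in RNA was not tested.

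The question in senescent control against control was how these genes stood in the senescent state. Of the 33 genes 2 rose, 20 fell and 11 did not pass the test, against a background of 19.7% of all genes higher, 25.3% lower and 45% in either direction. The median log2 fold change of the 33 was -0.46, and that of all genes -0.03. With no filter on low counts, or with only these 2 groups in the fit, 1 gene rose. Among the hnRNPs 15 of 23 fell and 0 rose (edgeR; 0 also at an unadjusted p under 0.05 and by DESeq2), with a median of -0.57. Among the SR genes 5 of 10 fell and 2 rose, with a median of -0.31.

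SRSF1, SRSF2, SRSF3 and SRSF7, which act broadly in splicing, fell by similar amounts. SRSF2, which binds exonic enhancers, stood at 124.5 and 123.3 CPM in senescent control and 220 and 205.2 in control, a log2 fold change of -0.78. SRSF3, a small SR protein that also acts in RNA export, had a log2 fold change of -0.73, SRSF1, the founding member of the family, -0.68, and SRSF7, which carries a zinc knuckle and also acts in export, -0.60. SRSF6 fell less, by 0.44. The groups did not overlap in any of these 5 genes, while 38.3% of all genes lay fully below control.

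The SR genes that rose were SRSF11 and SRSF5. SRSF11 (ENSG00000116754), an SR protein found with the spliceosome, stood at 174 and 167.7 CPM in senescent control and 90.65 and 130.2 in control, a log2 fold change of 0.63 (SE 0.14, edgeR adjusted p = 0.00279). The groups did not overlap, but the control libraries lay far apart. SRSF5, which binds exonic enhancers, stood at 121.2 and 117 CPM in senescent control and 101.6 and 97.33 in control (log2 fold change 0.26, SE 0.08, edgeR adjusted p = 0.0197). The call of SRSF5 was lost without senescent control replicate 1 or 2, at log2 fold changes of 0.26 and 0.32. It was also lost with both libraries present. The edgeR adjusted p was 0.0904 with no filter on low counts and 0.0736 with only these 2 groups in the fit.

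The hnRNP A/B proteins bind splicing silencers, and 5 of their 7 genes fell. HNRNPA0 (ENSG00000177733), also known to bind AU-rich elements, stood at 64.1 and 65.83 CPM in senescent control and 131.8 and 120 in control. Its log2 fold change was -0.95 (SE 0.09, edgeR adjusted p = 6.21e-06). HNRNPA1, the best known opponent of SR proteins in splice site choice, stood at 365.9 and 346.7 CPM in senescent control and 622 and 682.7 in control (log2 fold change -0.87, SE 0.09, edgeR adjusted p = 8.63e-06). HNRNPA1L3, a close copy of HNRNPA1, stood at 3.071 and 3.378 CPM in senescent control and 7.266 and 7.883 in control (log2 fold change -1.23, SE 0.16, edgeR adjusted p = 8.63e-05). In all 3 the groups lay far apart with no overlap. HNRNPA1 has many near-identical copies, so reads of HNRNPA1L3 and HNRNPA1L2 (log2 fold change -0.59) may have been split between them, which cannot be checked. With 76 copies summed into HNRNPA1 its log2 fold change was -0.86.

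HNRNPUL1, a relative of the chromatin-bound hnRNP U, stood at 157.2 and 154.6 CPM in senescent control and 295 and 272.2 in control. Its log2 fold change was -0.86 (SE 0.08, edgeR adjusted p = 5.12e-06), and the groups did not overlap. HNRNPU itself fell by 0.57 and HNRNPUL2 by 0.43. HNRNPD, which promotes decay of AU-rich messages, fell by 0.79. HNRNPF, which binds runs of G, had a log2 fold change of -0.68, while its relatives HNRNPH1, HNRNPH2 and HNRNPH3 stood at 0.10, 0.18 and -0.18 and did not pass the test. The remaining calls were HNRNPM (-0.66), HNRNPR (-0.62), HNRNPL, which binds CA repeats (-0.58), HNRNPAB (-0.58), HNRNPK, which binds runs of C (-0.46), and HNRNPC, which binds runs of U (-0.37). HNRNPC did not pass without senescent control replicate 1 (edgeR adjusted p = 0.0672) or replicate 2 (0.0678), and HNRNPA1L2 did not pass without senescent control replicate 2 (0.0616).

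**Figure D2:**
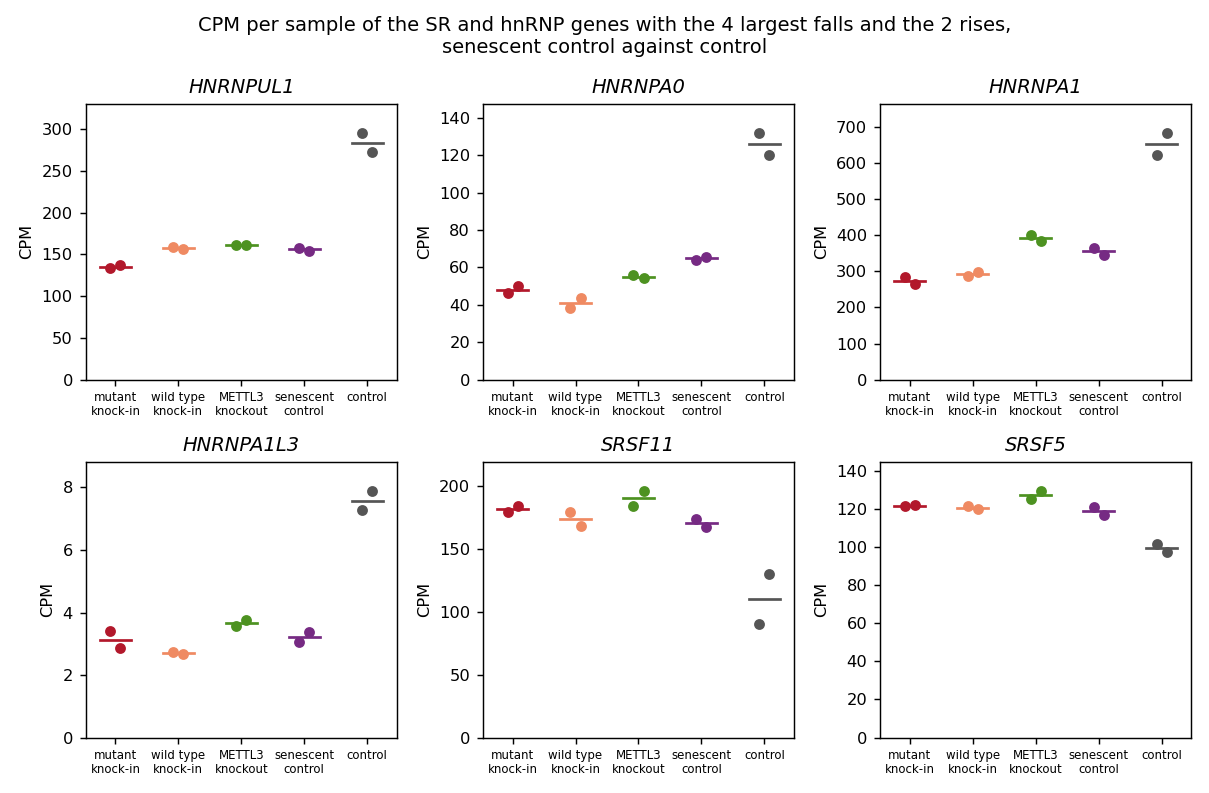
CPM per library (points) and group mean (lines) of the 4 genes with the largest called falls between senescent control and control and the 2 genes that rose, in all 5 groups. The 2 control libraries sit above all RAS libraries for HNRNPUL1, HNRNPA0, HNRNPA1 and HNRNPA1L3 and below them for SRSF11 and SRSF5.

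The difference between the control libraries touches this comparison. Control replicate 2 over replicate 1 ran from 0.842 (HNRNPL) to 1.53 (HNRNPH2) among the 33 genes, with SRSF11 at 1.44 and SRSF10 at 1.37. Without control replicate 1, 26 genes fell and 2 rose. Without control replicate 2, 21 fell and 5 rose, and SRSF10 turned from a log2 fold change of -0.04 to 0.25 (edgeR adjusted p = 0.00995). Markers of the dividing state moved with the comparison: MKI67 stood at 34.22 and 36.93 CPM in senescent control against 210.8 and 344.6 in control, and LMNB1 at 2.961 and 2.694 against 63.56 and 55.27. Of the 10 fibroblast markers 8 fell. The part of these in the result was not tested.

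After METTL3 was lowered in senescent cells, the log2 fold changes of 32 of the 33 genes against senescent control were small. Of the 33, 0 rose (edgeR; 1 at an unadjusted p under 0.05 and 0 by DESeq2) and 1 fell, against 7.17% of all genes higher, 8.62% lower and 15.8% in either direction. The median log2 fold change was 0.02, and that of all genes 0.01. The 32 genes that did not pass had log2 fold changes from -0.24 (HNRNPLL) to 0.18 (HNRNPA1L3), with SEs from 0.08 to 0.18. The counts depend on the fit: with only these 2 groups in it, 6 genes rose and 5 fell, against 16.4% of all genes higher and 20.1% lower, and the gene called lower here was lost (edgeR adjusted p = 0.236). In that fit the falls had log2 fold changes from -0.25 (HNRNPLL) to -0.14 (HNRNPAB), and the rises from 0.14 (HNRNPA1) to 0.18 (SRSF6). Genes that mark the state of the cells also differed. MKI67 (1.39, SE 0.20) and LMNB1 (1.43, SE 0.17), markers of the dividing state, rose, and the cell cycle inhibitors CDKN1A (-0.34, SE 0.10) and CDKN2A (-0.58, SE 0.09) fell. HRAS stood at 40.81 and 39.53 CPM in METTL3 knockout and 61.03 and 61.31 in senescent control, and 4 of the 10 fibroblast markers rose. The part of these in the result was not tested. HNRNPA1, for instance, stood at 401.2 and 383 CPM in METTL3 knockout and 365.9 and 346.7 in senescent control. Its groups did not overlap, as for 31.8% of all genes in the same direction, but the difference fell short of the threshold.

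The gene that fell was HNRNPUL2-BSCL2 (ENSG00000234857), a readthrough gene whose transcripts join HNRNPUL2 to its neighbour BSCL2. It stood at 10.97 and 8.761 CPM in METTL3 knockout and 22.37 and 13.47 in senescent control (log2 fold change -0.86, SE 0.24, edgeR adjusted p = 0.0347). The senescent control libraries lay far apart, and the call was lost without senescent control replicate 1 (adjusted p = 0.246), METTL3 knockout replicate 1 (0.0767) or METTL3 knockout replicate 2 (0.222). It shares exons with HNRNPUL2, so how reads were divided between them cannot be checked. With the readthrough added to HNRNPUL2 the log2 fold change of the sum was -0.08 and 0 genes fell.

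Wild type knock-in cells were compared with METTL3 knockout cells. METTL3 RNA stood at 58380 and 58120 CPM in wild type knock-in, far above senescent control (47.27 and 57.3 CPM). The comparison is therefore with METTL3 in large excess and not with its level restored. Of the 33 genes 4 rose, 9 fell and 20 did not pass, against 18.5% of all genes higher, 14.8% lower and 33.3% in either direction. The median log2 fold change was -0.16, and that of all genes 0.02. The calls were spread over both families, with 1 SR gene higher and 3 lower, and 3 hnRNP genes higher and 6 lower. With only these 2 groups in the fit 16 fell, against 21.8% of all genes lower. The number that rose was 2 with TMM scaling without METTL3, with no filter on low counts, by DESeq2 and with any 1 of the 4 libraries left out, and without wild type knock-in replicate 1 the number that fell was 5.

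HNRNPLL, known from T cells for its control of alternative exons, fell most. It stood at 27.33 and 26.95 CPM in wild type knock-in and 45.2 and 45.21 in METTL3 knockout (log2 fold change -0.74, SE 0.09, edgeR adjusted p = 9.35e-05). HNRNPUL2 stood at 64.12 and 67.33 CPM in wild type knock-in and 98.94 and 99.76 in METTL3 knockout (log2 fold change -0.60, SE 0.09, edgeR adjusted p = 0.000317). The readthrough HNRNPUL2-BSCL2 went the other way, at 30.87 and 24.29 CPM in wild type knock-in and 10.97 and 8.761 in METTL3 knockout (log2 fold change 1.48, SE 0.23, edgeR adjusted p = 0.000862). Summed, HNRNPUL2 and the readthrough had a log2 fold change of -0.23 and no longer passed (edgeR adjusted p = 0.0739), so the fall of HNRNPUL2 depends on how their shared reads were divided. BSCL2, the other partner, stood at 13.54 and 16.65 CPM in wild type knock-in and 17.09 and 18.1 in METTL3 knockout and was not called.

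Among the SR genes SRSF2 stood at 84.56 and 90.88 CPM in wild type knock-in and 121.9 and 130.1 in METTL3 knockout (log2 fold change -0.52, SE 0.09, edgeR adjusted p = 0.000792). SRSF9, an SR protein with a short arginine-serine tail, stood at 64.49 and 68.64 CPM in wild type knock-in and 91.61 and 89.12 in METTL3 knockout (log2 fold change -0.44, SE 0.09, edgeR adjusted p = 0.00232). In both genes the groups lay apart with no overlap, as did 33.7% of all genes in the same direction. SRSF2, which was already lower in senescent control than in control, was lowest in the knock-ins. SRSF4 stood at 53.26 and 56.1 CPM in wild type knock-in and 46.93 and 42.24 in METTL3 knockout (log2 fold change 0.30, SE 0.10, edgeR adjusted p = 0.0351). That call was lost on leaving out any of the 4 libraries (adjusted p from 0.081 to 0.33).

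HNRNPF stood at 112 and 119.2 CPM in wild type knock-in and 81.62 and 83.75 in METTL3 knockout (log2 fold change 0.48, SE 0.09, edgeR adjusted p = 0.00153), with no overlap. HNRNPC stood at 457.2 and 476.8 CPM in wild type knock-in and 391.2 and 393.9 in METTL3 knockout (log2 fold change 0.25, SE 0.09, edgeR adjusted p = 0.0492), and its call was lost on leaving out any of the 4 libraries (adjusted p from 0.11 to 0.299). The other calls were falls of HNRNPA3 (-0.44), HNRNPA0 (-0.43), HNRNPA1 (-0.42), SRSF6 (-0.33) and HNRNPD (-0.23). Of these HNRNPA3 (adjusted p from 0.0516 to 0.0816) and HNRNPD (0.0928 to 0.147) did not pass with any of the 4 libraries left out. HNRNPA0 (0.0553) and SRSF6 (0.0514) did not pass without wild type knock-in replicate 1. HNRNPLL, HNRNPUL2, SRSF2, SRSF9, HNRNPF, HNRNPA1 and the readthrough passed with each library left out.

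Mutant knock-in cells were compared with the same METTL3 knockout libraries. Of the 33 genes 5 rose, 13 fell and 15 did not pass, against 24.1% of all genes higher, 24.3% lower and 48.4% in either direction. The median log2 fold change was -0.18, and that of all genes 0.01. Among the hnRNPs 3 rose and 10 fell, and among the SR genes 2 rose and 3 fell. Without METTL3 knockout replicate 2 the number that rose was 2, without mutant knock-in replicate 2 it was 3, and without mutant knock-in replicate 1 the number that fell was 8.

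HNRNPC (ENSG00000092199) had the lowest adjusted p of the genes that rose. It stood at 610.2 and 709.4 CPM in mutant knock-in and 391.2 and 393.9 in METTL3 knockout (log2 fold change 0.75, SE 0.09, edgeR adjusted p = 3.71e-05). Both mutant knock-in libraries were also above the control libraries (519.1 and 512.8 CPM). HNRNPF stood at 132.6 and 138.6 CPM in mutant knock-in and 81.62 and 83.75 in METTL3 knockout (log2 fold change 0.71, SE 0.09, edgeR adjusted p = 5.51e-05), and its libraries lay within the range of control (142.3 and 125.7 CPM). The readthrough HNRNPUL2-BSCL2 stood at 20.76 and 16.78 CPM in mutant knock-in and 10.97 and 8.761 in METTL3 knockout (log2 fold change 0.93, SE 0.24, edgeR adjusted p = 0.00892). This call was lost without METTL3 knockout replicate 2 (0.0792) or mutant knock-in replicate 1 (0.0678).

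Of the SR genes that rose, SRSF4 stood at 58.93 and 60.87 CPM in mutant knock-in and 46.93 and 42.24 in METTL3 knockout (log2 fold change 0.43, SE 0.10, edgeR adjusted p = 0.00344). SRSF3 had a log2 fold change of 0.35. Neither call held on every removal of a library: SRSF4 was at 0.0753 without METTL3 knockout replicate 2 and 0.0556 without mutant knock-in replicate 2, and SRSF3 at 0.083, 0.067 and 0.152 without METTL3 knockout replicate 1, METTL3 knockout replicate 2 and mutant knock-in replicate 2.

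The largest falls were in HNRNPUL2, SRSF9 and HNRNPLL. HNRNPUL2 stood at 60.42 and 56.69 CPM in mutant knock-in and 98.94 and 99.76 in METTL3 knockout (log2 fold change -0.76, SE 0.09, edgeR adjusted p = 3.08e-05), and with the readthrough added the sum still fell by 0.50 (edgeR adjusted p = 0.000776). SRSF9 stood at 54.1 and 57.83 CPM in mutant knock-in and 91.61 and 89.12 in METTL3 knockout (log2 fold change -0.69, SE 0.09, edgeR adjusted p = 6.06e-05). HNRNPLL stood at 29.34 and 27.62 CPM in mutant knock-in and 45.2 and 45.21 in METTL3 knockout (log2 fold change -0.67, SE 0.09, edgeR adjusted p = 0.000108). The groups did not overlap in these 3 genes, which holds for 39.4% of all genes in the same direction. HNRNPH2, a G-run binder encoded on the X chromosome, stood at 33.22 and 35.22 CPM in mutant knock-in and 50.33 and 54.44 in METTL3 knockout (log2 fold change -0.62, SE 0.16, edgeR adjusted p = 0.00927). Its call was lost without METTL3 knockout replicate 2 (0.0571) or mutant knock-in replicate 1 (0.0566). The other falls ran from -0.59 (SRSF2), -0.56 (HNRNPA3), -0.52 (HNRNPA1) and -0.50 (HNRNPAB) to between -0.34 and -0.25 for HNRNPL, HNRNPD, HNRNPUL1, HNRNPK and SRSF1. HNRNPD, HNRNPUL1, HNRNPK and SRSF1 each lost the call without mutant knock-in replicate 1 (0.0698, 0.107, 0.103 and 0.154) and without METTL3 knockout replicate 1 (0.0597, 0.0701, 0.0832 and 0.132), and HNRNPUL1 and HNRNPK also without METTL3 knockout replicate 2 (0.0623 and 0.0539).

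**Figure D3:**
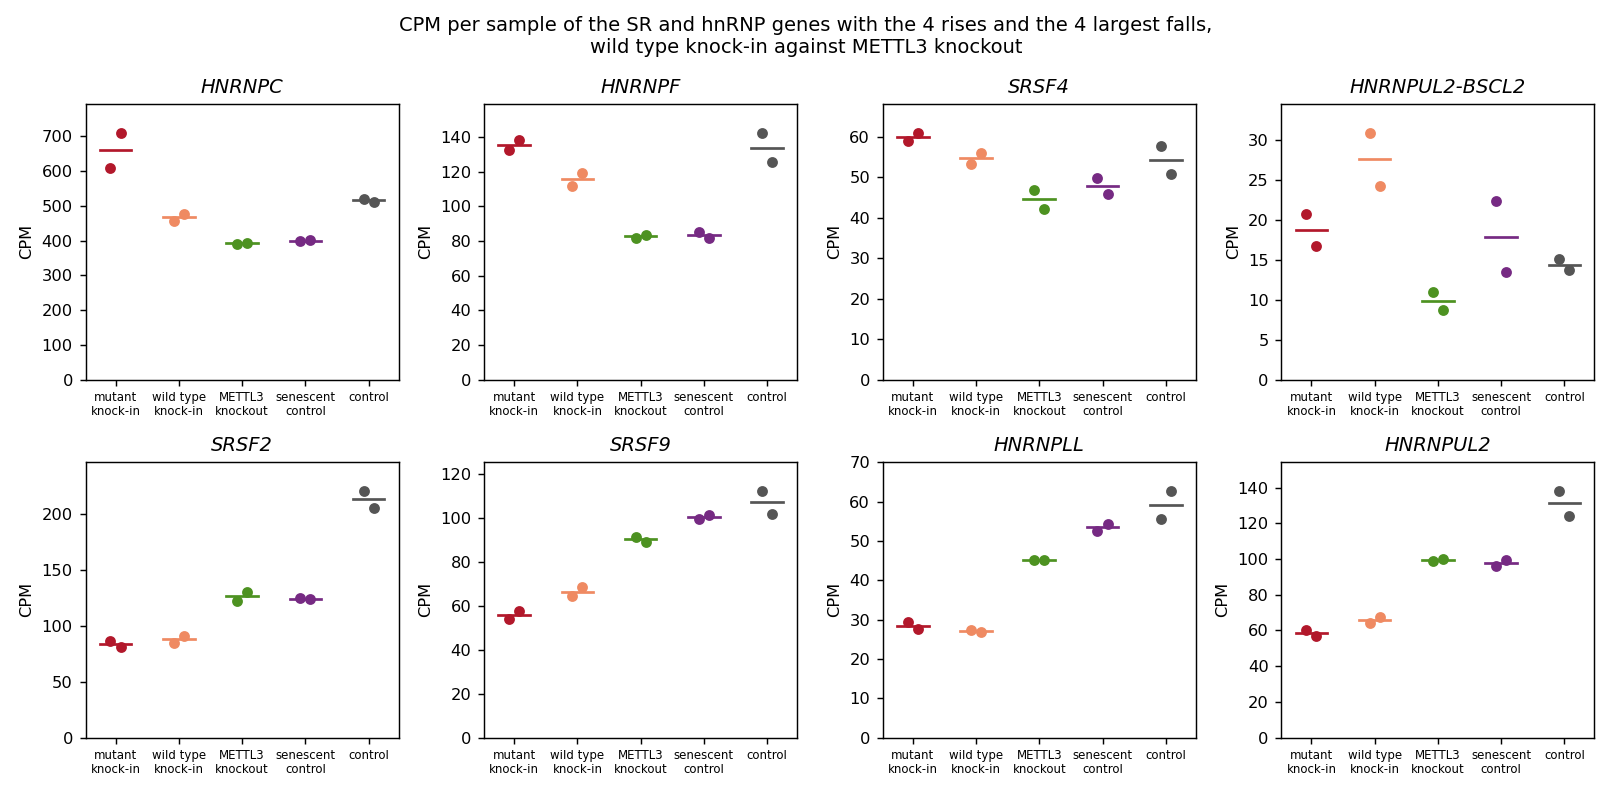
CPM per library (points) and group mean (lines) of the 4 genes that rose and the 4 genes with the largest falls between wild type knock-in and METTL3 knockout, in all 5 groups. HNRNPC, HNRNPF, SRSF4 and HNRNPUL2-BSCL2 are higher in both knock-ins than in METTL3 knockout, SRSF2, SRSF9, HNRNPLL and HNRNPUL2 are lower, and HNRNPC is highest in mutant knock-in at 610.2 and 709.4 CPM.

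The state of the cells also differed between the knock-ins and the knockout. MKI67 stood at 47.89 and 50.92 CPM in mutant knock-in, 26.36 and 24.85 in wild type knock-in and 104 and 83.13 in METTL3 knockout. HRAS stood at 29.76 and 23.69 CPM in mutant knock-in, 48.75 and 43.41 in wild type knock-in and 40.81 and 39.53 in METTL3 knockout. Of the 10 fibroblast markers 8 fell and 1 rose in mutant knock-in, and 5 fell and 1 rose in wild type knock-in. CD68 was at 163.7 and 168.1 CPM in mutant knock-in, 151.9 and 160.3 in wild type knock-in and 77 and 75.88 in METTL3 knockout. The part of these in the splicing factor results was not tested.

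Mutant knock-in was then compared with wild type knock-in, which tests the difference between them directly. Of the 33 genes 1 rose and 1 fell, against 5.16% of all genes higher, 7.39% lower and 12.5% in either direction. With only these 2 groups in the fit 2 rose and 6 fell, against 11.9% of all genes higher and 13.9% lower. With no filter on low counts 4 fell, and 0 fell by DESeq2, with DESeq2 size factors, upper-quartile scaling or TMM scaling without METTL3. The median log2 fold change was -0.02, and that of all genes -0.0026. Of the SR genes 0 were called (edgeR; 0 higher and 1 lower at an unadjusted p under 0.05, and 0 by DESeq2). HNRNPC rose, at 610.2 and 709.4 CPM in mutant knock-in and 457.2 and 476.8 in wild type knock-in (log2 fold change 0.50, SE 0.09, edgeR adjusted p = 0.00646). The groups did not overlap, but the call was lost without wild type knock-in replicate 2 (0.0608) or mutant knock-in replicate 2 (0.0978). HNRNPAB fell, at 69.9 and 68.79 CPM in mutant knock-in and 81.57 and 88.22 in wild type knock-in (log2 fold change -0.29, SE 0.08, edgeR adjusted p = 0.0425), and its call was lost without any of the 4 libraries (0.0559 to 0.318) and by DESeq2 (0.0582). METTL3 itself was 2.248-fold higher in mutant knock-in, so its level and the mutation cannot be told apart.

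**Figure D4:**
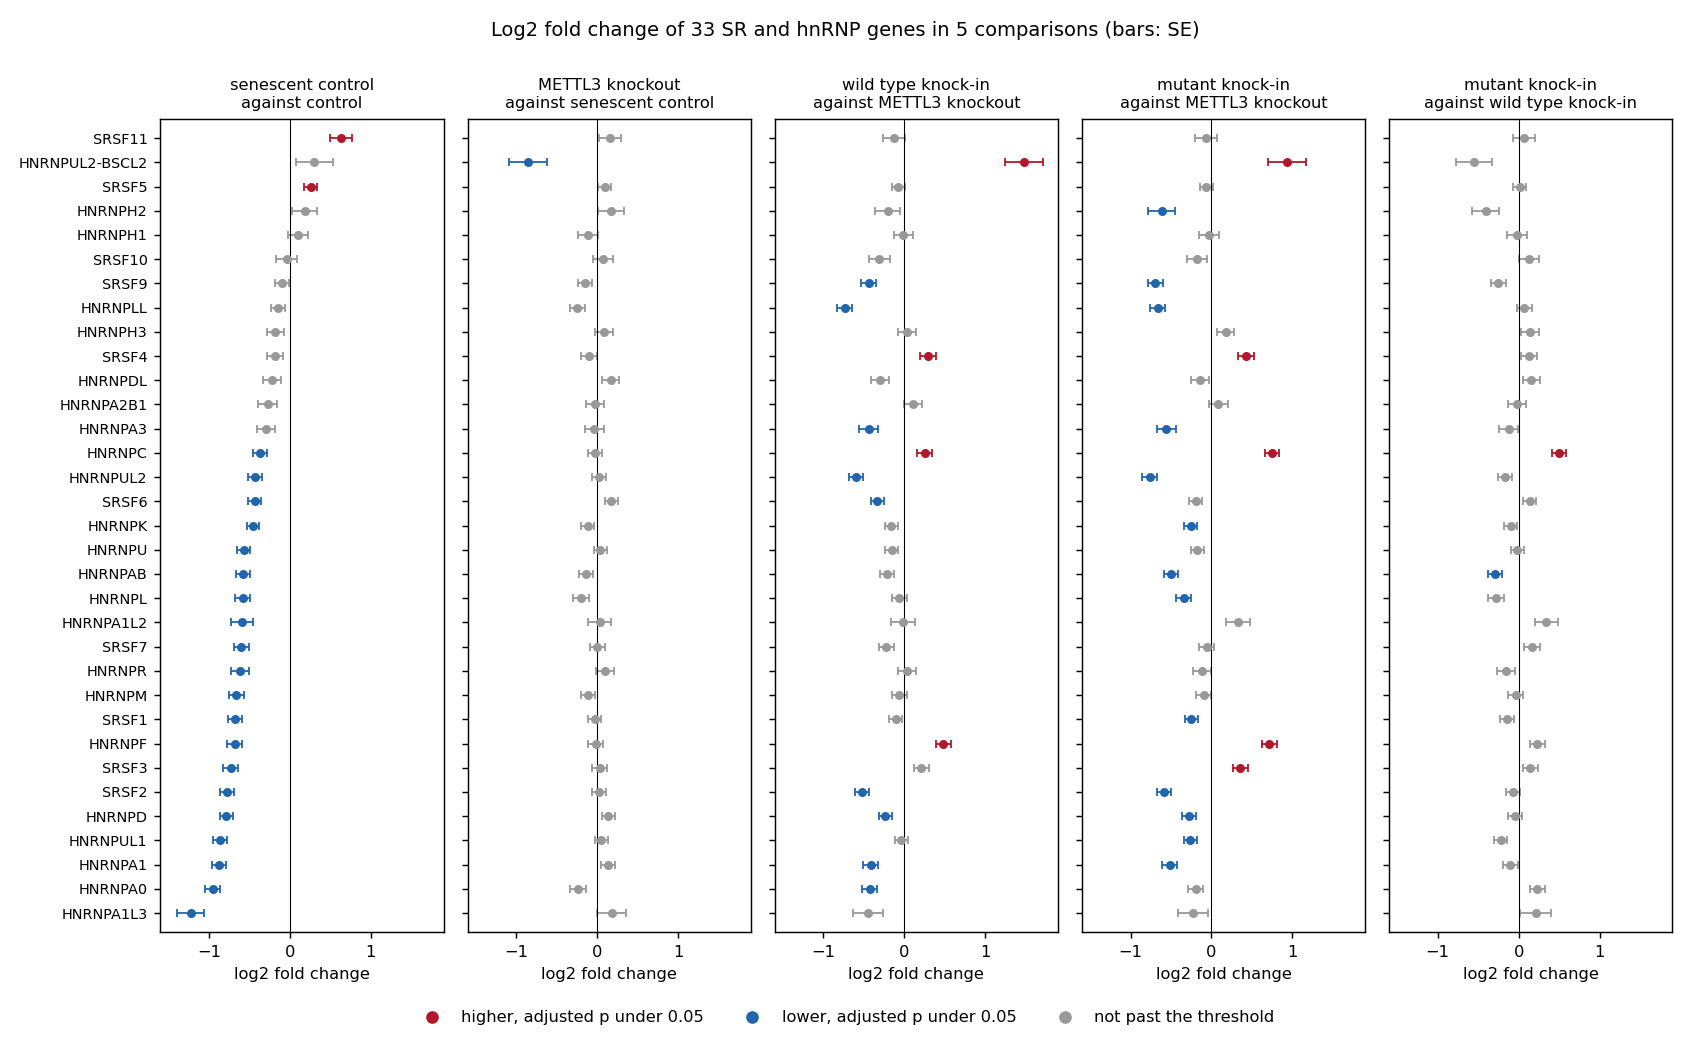
Log2 fold change (points) with its SE (bars) of the 33 genes in 5 comparisons, ordered by the change between senescent control and control, with red for higher and blue for lower at an adjusted p under 0.05. The left panel holds 20 genes lower and 2 higher, and the panel of METTL3 knockout against senescent control holds 1 lower and 0 higher.

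The fall in senescence and the changes in the knock-ins come from comparisons that share no library, so their calls can be set side by side. Of the 20 genes that fell in senescent control, 6 also fell in wild type knock-in against METTL3 knockout. That is 30% of the 20 and 66.7% of the 9, against 26.5% and 45.3% for the lists of all genes. With mutant knock-in 9 were shared, 45% of the 20 and 69.2% of the 13, against 39.1% and 40.7% for all genes. Some moved in opposite directions: 3 of the 20 rose in mutant knock-in, 15% of the 20 and 60% of the 5, against 18.3% and 19.2% for all genes. In wild type knock-in 2 of the 20 rose, 10% of the 20 and 50% of the 4, against 15.4% and 21% for all genes. Over the 33 genes themselves 60.6% fell in senescent control, and the 66.7%, 69.2%, 60% and 50% above lie around this share. In wild type knock-in 27.3% of the 33 fell and 12.1% rose, and in mutant knock-in 39.4% fell and 15.2% rose. The shares of the 20 lie near these. These overlaps rest on few genes and carry no test. HNRNPA1, which fell in all 3 comparisons, was at 283.9 and 264.2 CPM in mutant knock-in, 288.2 and 299.7 in wild type knock-in and 622 and 682.7 in control.

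Other genes of the splicing machinery were counted in 5 lists, beside the same background shares of all genes. In senescent control against control the core of the spliceosome fell widely. Of 21 proteins of the U4/U6.U5 tri-snRNP and the activated spliceosome 16 fell (76.2%, against 25.3% of all genes), with a list median of -0.50, led by 3 proteins of the ring that binds U6 RNA, LSM3 (-0.98, SE 0.09), LSM5 (-0.92, SE 0.10) and LSM6 (-0.87, SE 0.18). Of 27 U1 and U2 snRNP proteins and factors that recognise the 3′ splice site 14 fell (51.9%) and 3 rose (11.1%, against 19.7% of all genes), with a median of -0.29. SNRPA, a U1 protein (-0.81, SE 0.12), and the U2 proteins SF3A3 (-0.61, SE 0.08) and SF3B3 (-0.59, SE 0.09) led the falls. The genes that rose were LUC7L3 (0.75, SE 0.13), LUC7L (0.48, SE 0.09) and SNRNP70 (0.37, SE 0.10), all tied to the U1 snRNP. Of 23 other SR-like and hnRNP proteins 12 fell (52.2%) and 2 rose (8.7%). RBMX, also called hnRNP G (-0.78, SE 0.08), PTBP1, which binds pyrimidine tracts (-0.56, SE 0.09), and KHSRP (-0.50, SE 0.11) fell, and SREK1 (1.08, SE 0.20) and PNISR (1.00, SE 0.17), both with arginine-serine repeats, rose.

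The kinases that phosphorylate SR proteins and the receptors that import them moved in both directions. Of 11 such genes 4 rose (36.4%, against 19.7% of all genes) and 3 fell in senescent control (27.3%, against 25.3%). TNPO1, the import receptor of hnRNP A1 (0.55, SE 0.17), PRPF4B (0.47, SE 0.14) and CLK2 (0.35, SE 0.12), both kinases, were among those that rose. TNPO3, the import receptor of SR proteins (-0.42, SE 0.08), AKT1 (-0.42, SE 0.10) and DYRK1A (-0.32, SE 0.09) fell. Of 13 factors of nonsense-mediated decay 2 rose (15.4%) and 3 fell (23.1%), shares near those of all genes. Those that rose were SMG1, the kinase of UPF1 (1.15, SE 0.17), and UPF2 (0.80, SE 0.14). SMG9 (-0.53, SE 0.12), UPF1 (-0.39, SE 0.10) and EIF4A3 (-0.30, SE 0.09) fell. SMG1 has several near-identical copies, so its counts are uncertain.

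METTL3 knockout against senescent control moved few of these genes. The import receptor TNPO3 (-0.38, SE 0.09) and the kinase SRPK1 (-0.40, SE 0.09) fell, as did PTBP3 (-0.85, SE 0.13), U2AF2, which binds the pyrimidine tract at the 3′ splice site (-0.57, SE 0.10), EFTUD2 (-0.31, SE 0.09) and EIF4A3 (-0.34, SE 0.09). Of the 11 kinases and import receptors 2 fell (18.2%), against 8.62% of all genes. In each other list 1 gene fell, from 3.7% of the U1 and U2 list to 7.69% of the decay factors. In every list 0 rose, against 7.17% of all genes.

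In the knock-ins many U1 and U2 snRNP genes fell. Of the 27, 14 fell in mutant knock-in (51.9%, against 24.3% of all genes) and 9 in wild type knock-in (33.3%, against 14.8%), both against METTL3 knockout. In mutant knock-in the core Sm proteins SNRPD1 (-0.96, SE 0.11), SNRPD3 (-0.83, SE 0.09) and SNRPD2 (-0.81, SE 0.11) led the falls. In wild type knock-in the lead was SNRPD1 (-0.82, SE 0.10), SNRPA1 (-0.54, SE 0.10) and SNRPD3 (-0.44, SE 0.09). Of the 21 tri-snRNP and activated spliceosome genes 6 fell in mutant knock-in (28.6%, near the 24.3% of all genes), led by LSM2 (-0.69, SE 0.19), LSM3 (-0.69, SE 0.10) and LSM7 (-0.67, SE 0.15), while 4 fell (19%, near the 14.8% of all genes) and 1 rose in wild type knock-in, where LSM7 stood at -0.64 (SE 0.14).

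Of all genes 24.1% rose in mutant knock-in and 18.5% in wild type knock-in, and the kinases and import receptors of SR proteins rose at shares near these. DYRK1A, a kinase of splicing factors, rose in mutant knock-in (1.04, SE 0.09) and wild type knock-in (0.71, SE 0.09), and CLK1 rose in mutant knock-in (0.62, SE 0.12). TNPO3 rose in mutant knock-in (0.32, SE 0.09) and wild type knock-in (0.43, SE 0.09). In all, 3 of the 11 rose (27.3%) and 1 fell (9.09%) in mutant knock-in, and 2 rose (18.2%) in wild type knock-in. Of the 13 decay factors 4 rose (30.8%) and 2 fell (15.4%, against 24.3% of all genes) in mutant knock-in, where SMG9 (0.81, SE 0.12), SMG8 (0.80, SE 0.09) and SMG1 (0.70, SE 0.17) rose and EIF4A3 (-0.60, SE 0.10) fell. In wild type knock-in 4 rose (30.8%), SMG8 (0.83, SE 0.09) the most, and EIF4A3 fell (-0.35, SE 0.09). Of the 23 other SR-like and hnRNP genes 5 rose (21.7%) and 8 fell (34.8%) in mutant knock-in, and 2 rose (8.7%) and 3 fell (13%) in wild type knock-in. PTBP2, the neuronal relative of PTBP1, rose in mutant knock-in (1.02, SE 0.16) and wild type knock-in (0.65, SE 0.16), and ELAVL1, which binds AU-rich messages, fell in both (-0.56, SE 0.11, and -0.60, SE 0.11).

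Against wild type knock-in, 5 of the 27 U1 and U2 genes fell in mutant knock-in (18.5%, against 7.39% of all genes), with SNRPD2 (-0.49, SE 0.11), SNRPC (-0.40, SE 0.10) and SF3B6 (-0.40, SE 0.09) at the head. LSM4 (-0.42, SE 0.11) fell, and TRA2B, an SR-like enhancer-binding protein (0.38, SE 0.09), and DYRK1A (0.33, SE 0.09) rose. Several snRNP genes have processed copies in the genome, so their counts are uncertain too.

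**Figure D5:**
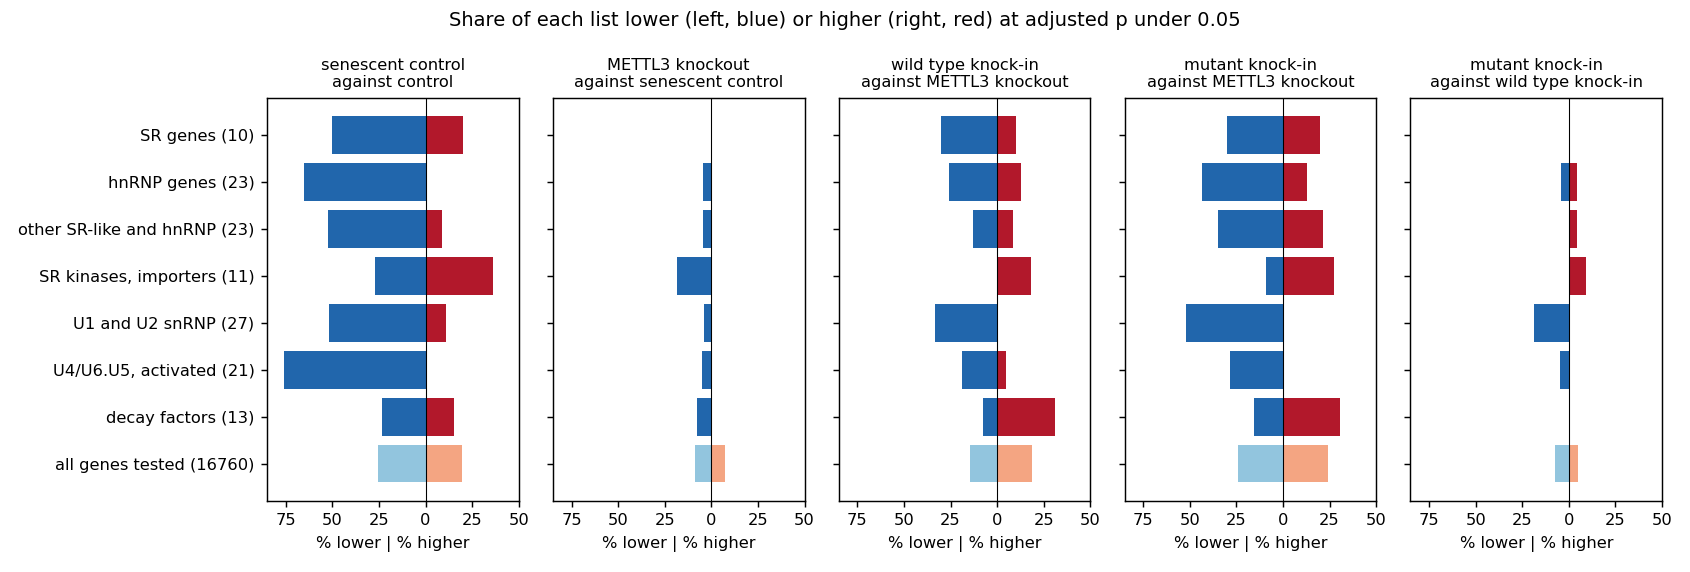
Percentage of each list called lower (bars to the left, blue) or higher (bars to the right, red) in each of 5 comparisons, with all 16760 genes in paler colours at the bottom and the number of genes tested in brackets. In senescent control against control the tri-snRNP list has 16 of 21 genes lower and the hnRNP genes 15 of 23, and in mutant knock-in against METTL3 knockout the U1 and U2 list has 14 of 27 lower.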

How the data were processed

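RNA was sequenced from 10 IMR90 libraries, 2 per group, grouped by their titles. Libraries were made with the KAPA RNA HyperPrep kit from RNeasy extracts treated with DNase I, per the labels' protocols. The submitters' processing notes name the build hg19, RSEM 1.2.12 and Bowtie2 without a version. Raw whole-number counts per Ensembl gene, in 1 table, are what the authors deposited. The sources used here do not state the annotation, the strand setting or how reads shared between genes were treated, so overlapping, antisense and near-identical genes are uncertain.

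Symbols were matched for 51959 of 57736 gene IDs and gene types for 52301 (GENCODE v29). The SR and hnRNP genes and the lists beside them were chosen with earlier results of these data known. All genes of the rule may be named. In each comparison the called genes with the largest changes, up to 4 higher and 4 lower, are given in every library, and up to 3 genes per direction are named from each list. Counts were tested with edgeR 4.0.16 in R 4.3.3: filterByExpr with a minimum count of 10 left 16760 genes, the 33 among them, libraries were scaled by TMM, and all 10 libraries entered 1 model of group means (5 residual degrees of freedom). The test was edgeR's robust quasi-likelihood F test, two-sided, Benjamini-Hochberg adjusted over all genes. An SE is the log2 fold change over the square root of F, so it draws on the spread of all groups. CPM values come from the deposited counts and TMM-scaled totals, and no CPM is compared between genes. The biological coefficient of variation was 9.22%. The fit was also run on simulated counts that gave each gene the same spread in all groups. Here the control libraries lay further apart than other replicates, so that run cannot show how the fit does on these data. Alternatives were upper-quartile scaling, DESeq2 size factors, TMM without METTL3, no filter, a replicate block, only the compared groups, the Wald test of DESeq2 1.42.0, leaving out each library and, added after seeing the data, summing near-identical copies. Every value column of the table was used. Promoter coordinates are those of RefSeq on GRCh38.p14, not of the authors' build. Of the cell type markers, 1 is not reported here.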

Additional observations from a re-analysis of the deposited data

How the results depend on the processing

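For single genes, 1835 of the values recomputed under an alternative kept their side of the threshold, 75 lost a call, 54 gained a call and 1 reversed. Called values among the 1835 kept their direction, but values not called were counted there even when their sign changed. The value that reversed was SRSF10 in senescent control against control. Its log2 fold change was 0.25 without control replicate 2, against -0.23 without control replicate 1. The count of SR and hnRNP genes that fell in senescent control against control stayed within 1.5 times 20 under every alternative run. The median log2 fold change of all genes moved by less than 0.1 from its value in the fit used here, and it changed sign in each comparison. It ran from -0.03 to 0.02 in senescent control against control. The widest range was in mutant knock-in against METTL3 knockout, from -0.05 to 0.09. Counts that moved by more did so as follows. With only the compared groups in the fit, 1 gene rose in senescent control, 6 rose and 5 fell in METTL3 knockout, 16 fell in wild type knock-in, and 2 rose and 6 fell in mutant against wild type knock-in. With no filter on low counts, 1 rose in senescent control, 2 rose in wild type knock-in, and 4 fell in mutant against wild type knock-in. In wild type knock-in 2 rose with TMM without METTL3 and by the DESeq2 Wald test. In mutant against wild type knock-in 0 fell with upper-quartile scaling, DESeq2 size factors, TMM without METTL3 and the DESeq2 Wald test. With near-identical copies summed, 0 fell in METTL3 knockout. The causes were not tested.

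With each library left out in turn, the number of genes that rose and fell ran from 1 to 5 and from 18 to 26 in senescent control, was 0 and from 0 to 1 in METTL3 knockout, 2 and from 5 to 7 in wild type knock-in, from 2 to 4 and from 8 to 13 in mutant knock-in, and from 0 to 1 and 0 in mutant against wild type knock-in. Leaving a group with 1 library assumes that it varies like the others.

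Replicate numbers are shared by the groups, but deviations of same-numbered libraries correlated only at -0.12 to 0.0608 over 10 pairs of groups. This shows no pairing by number, but with 2 libraries a group it cannot exclude one. With the replicate block, 2 rose and 20 fell in senescent control, 0 and 1 in METTL3 knockout, 3 and 8 in wild type knock-in, 5 and 13 in mutant knock-in, and 1 and 1 in mutant against wild type knock-in, where the gene that fell was HNRNPUL2-BSCL2 (edgeR adjusted p = 0.0254) and HNRNPAB no longer passed (0.0575). With 2 libraries a group and SEs of 0.08 to 0.24, small differences may be missed.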
